A study of Sorghum bicolor and Setaria italica and Zea mays with 20 samples.

Results

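Of the 36279 DNaseI-hypersensitive sites (DHSs) listed for *Brachypodium distachyon* whole leaves on chromosomes 1 to 5, 1011 contained no digital genomic footprint (DGF). These footprint-free DHSs were 2.79% of the list (95% Wilson interval 2.62% to 2.96%) and were chosen by footprint overlap alone: a DHS entered the group when no listed DGF overlapped it by 1 bp or more. The other 35268 DHSs held the 191015 DGFs listed on these chromosomes. Because DGFs are called from cuts inside DHSs, width, enrichment and footprints of a DHS come from the same reads, and the comparisons below are descriptions without a test.

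In a DNaseI-seq experiment, nuclei are digested lightly and the released DNA is sequenced, so that open chromatin appears as a region dense in cuts. A protein bound within such a region shields a short stretch from the enzyme, and that dip in cuts flanked by cutting is read as a footprint. A hypersensitive site without one is open DNA in which no protected stretch is listed. The names of the listed DGFs run over 496306 consecutive numbers, of which 38.5% are in the list, and whether footprints with the other numbers had been called in the 1011 DHSs and removed was not determined. Factors that stay on DNA only briefly are known to leave shallow footprints or none, and a deep dip can be called only where the surrounding DNA is cut often. In plants, open chromatin is found at promoters, within genes and in regulatory DNA between them.

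The series has 20 samples from 4 grasses, with 16 samples of chromatin and 4 of deproteinized DNA. *B. distachyon*, a C3 grass, contributed 2 whole-leaf samples from 21-d-old seedlings kept at 20 °C, lastly under 20 h of light and 4 h of dark, harvested at Zeitgeber time 20 and flash-frozen. The *S. bicolor*, *S. italica* and *Z. mays* whole-leaf lists used for comparison come from 3, 3 and 2 samples of C4 species, harvested 18 d after germination and 4 to 6 h into the light period, with nuclei isolated by another procedure. Species, growth and nuclei preparation cannot be told apart between the lists. Each sample combined leaves of many plants, and no line or genotype is stated in the labels. Replicates were combined before deposit into 1 DHS list and 1 DGF list per species, so no value below has a replicate error. The lists hold no read counts, and read totals from other sources were not used here. Wilson intervals cover counting error over listed intervals only, and neighbouring intervals are not independent. The lists carry no gene names and no annotation or sequence of assembly Bdistachyon_283_assembly_v2.0 was used here, so regions are given by position, counted from 1, and the labelled tissue was not checked against marker genes.

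Footprint-free DHSs were narrow. Their median width was 472 bp, with the middle of the distribution from 303 to 699 bp and extremes of 150 and 3057 bp, against a median of 1524 bp and a maximum of 15058 bp for the footprint-holding DHSs. Of the 1011, 940 (93.0%) were under 1000 bp wide, compared with 28.4% of the DHSs that held a DGF. They numbered 2.79% of the DHSs but covered 545 kb, or 0.780% of all DHS length. At the edge of the selection, the 3590 DHSs with exactly 1 DGF had a median width of 606 bp (quartiles 398 and 863 bp). Medians were 833 bp with 2 DGFs, 1331 bp with 3 to 5, and 2885 bp with 6 or more, so DHSs without a footprint continued a graded order at its narrow end.

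The share of DHSs without a footprint fell steadily with width. It was 28.5% below 300 bp (248 of 870, 25.6% to 31.6%), 14.8% from 300 to 500 bp (290 of 1953), 6.77% from 500 to 750 bp (264 of 3899), and 3.26% from 750 to 1000 bp (138 of 4233). Beyond that it was 0.787% from 1000 to 1500 bp (58 of 7369), 0.168% from 1500 to 2000 bp (9 of 5354), and 0.0317% at 2000 bp or more (4 of 12601, 0.0123% to 0.0816%). Even in the narrowest class, most DHSs held a footprint. A wide region offers more room for a DGF and more cuts from which to call it, and the part of each in this order was not tested.

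**Figure D1:**
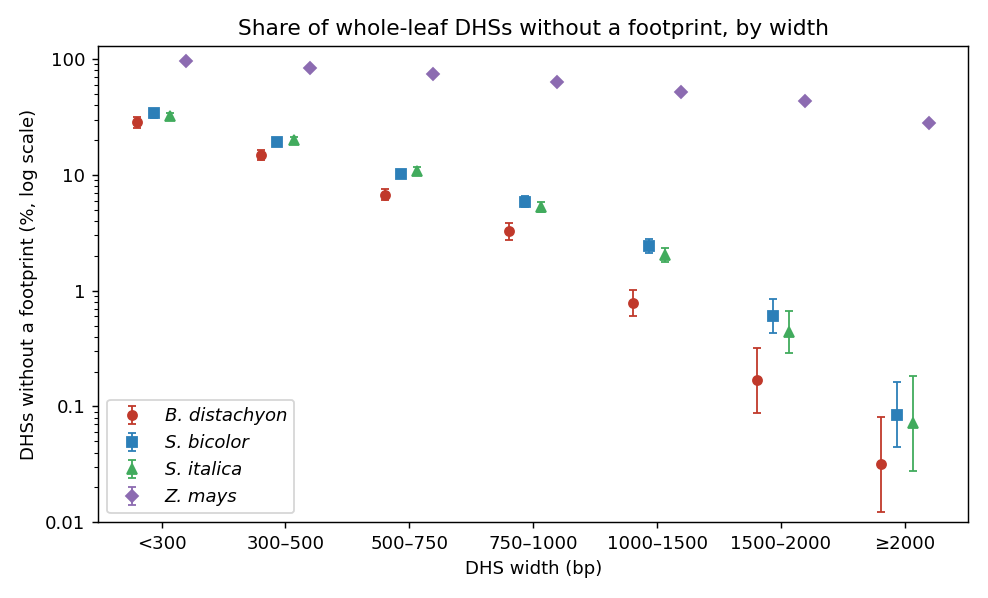
Share of whole-leaf DHSs without a footprint (log scale, percent) in 7 classes of DHS width (bp) for *B. distachyon* and the 3 C4 species, with 95% Wilson intervals as bars. In *B. distachyon* the share declines from 28.5% below 300 bp to 0.0317% at 2000 bp or more, and the *Z. mays* shares lie above all others, between 28.1% and 96.4%.

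Signal was compared through column 7 of the DHS list, the fold enrichment of cuts over local background as the authors' peak caller gave it. Footprint-free DHSs had a median enrichment of 2.10-fold (quartiles 2.00 and 2.38) and DHSs with footprints a median of 2.38-fold (2.12 and 2.74). Most of that gap went with width. Below 300 bp the medians were 2.07 without and 2.10 with a DGF, from 300 to 500 bp 2.10 and 2.14, from 500 to 750 bp 2.14 and 2.20, from 750 to 1000 bp 2.21 and 2.26, and from 1000 to 1500 bp 2.26 and 2.33. In each of these 5 classes the quartile ranges overlapped broadly. Averaged over width classes in proportion to the footprint-free DHSs, the medians differed by -0.04 (footprint-free minus footprint-holding). The order-statistic intervals of the footprint-free medians gave a range of -0.09 to 0.03, which includes 0. That range takes the limits of all classes in the same direction and is wider than an interval of the averaged difference. It therefore cannot decide whether the difference is 0. Above 1500 bp the order turned, with medians of 2.44 and 2.39 in the next class and 4.05 and 2.57 at 2000 bp or more, but only 9 and 4 footprint-free DHSs stand behind these values.

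The authors' -log10 p-value in column 8 gave a similar picture with a wider gap. At like width the medians were 7.69 in footprint-free and 8.08 in footprint-holding DHSs below 300 bp, 7.86 and 8.69 from 300 to 500 bp, 8.60 and 9.63 from 500 to 750 bp, and 9.30 and 10.7 from 750 to 1000 bp. Of the footprint-free DHSs, 57.7% lay in the lowest 25% of the list by this column, compared with 24.7% of those with a footprint. DHSs with a single DGF had column 7 medians at like width of 2.10, 2.13, 2.21 and 2.24 in the 4 classes under 1000 bp. The footprints that kept these DHSs out of the group had a median score near that of all listed footprints. Their median Wellington score, on which stronger footprints reach lower, more negative numbers, was -13.3, against -13.5 for all listed footprints, and they lay a median of 92.5 bp from the DHS summit. The weakest 25% of them scored above -11.2. Of all footprints, the weakest 15% scored above -11.0 and the weakest 30% above -12.1. The limit at 25% was not computed for all footprints, so an excess of weak ones was not measured. In DHSs with 2 or more footprints, the strongest footprint had a median score of -17.8. As the lowest of several scores, that value cannot be compared directly with the score of a single footprint.

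Most footprint-free DHSs were therefore weak as well as narrow, but the relation with enrichment was not monotonic. The footprint-free share was 6.68% up to 2-fold enrichment (295 of 4414), 3.81% from 2- to 2.25-fold, 1.93% from 2.25- to 2.5-fold, 1.39% from 2.5- to 3-fold, and 0.779% from 3- to 3.5-fold (28 of 3595, 0.539% to 1.12%). It was 0.943% from 3.5- to 4-fold (11 of 1167) and then 6.47% from 4- to 5-fold (13 of 201, 3.82% to 10.7%), 12.1% from 5- to 6-fold (4 of 33) and 33.3% above 6-fold (7 of 21, 17.2% to 54.6%). The limits of these classes were set after the values had been seen. Among the DHSs ordered by enrichment, the first 5 included 1 without a footprint, the first 10 included 4, the first 20 included 7, the first 50 included 11, and the first 100 included 17.

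The upturn was present in each of 3 width ranges. Below 500 bp the footprint-free share was 22.4% up to 2-fold, 14.8% from 2.25- to 2.5-fold, 16.5% from 3- to 4-fold, and 27.8% above 4-fold (10 of 36, 15.8% to 44.0%). From 500 to 1000 bp it was 7.17%, 3.68%, 4.12% and 25.7% in the same classes (9 of 35 above 4-fold, 14.2% to 42.1%). At 1000 bp or more it was 0.509%, 0.185%, 0.119% and 2.72% (5 of 184 above 4-fold, 1.17% to 6.20%). The step above 4-fold was larger than the counting error in the 2 wider ranges, whereas the intervals overlapped below 500 bp.

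**Figure D2:**
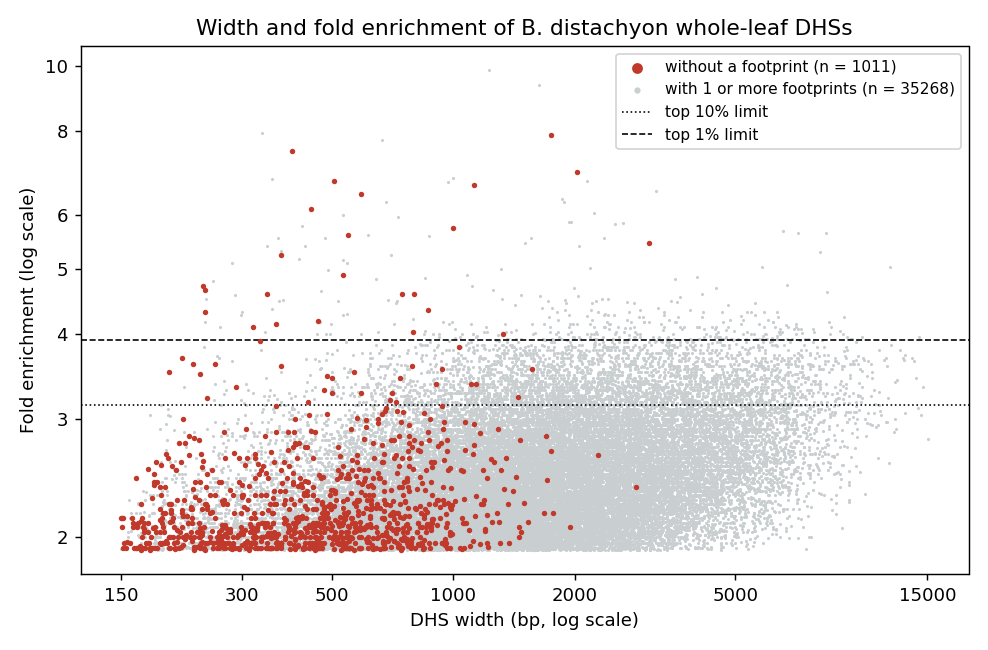
Width (bp, log scale) and fold enrichment (column 7, log scale) of each *B. distachyon* whole-leaf DHS, without a footprint in red (n = 1011) and with 1 or more in grey (n = 35268), and the limits of the top 10% and top 1% of enrichment as lines. Red points crowd the narrow, low corner, and 24 stand above the top 1% limit, 19 of them under 1000 bp wide.

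A DHS was called strong when its enrichment was in the top 10% of all 36279 (3.14-fold or more) and very strong in the top 1% (3.92-fold or more), the 1% limit being added after the values were seen. Of the footprint-free DHSs, 52 were strong (5.14%, 3.94% to 6.68%), against 10.4% of all DHSs and 10.5% of those with a footprint. Very strong ones numbered 24 (2.37%, 1.60% to 3.51%), against 1.00% of all DHSs and 0.961% of those with a footprint (339 of 35268). Over all widths, strong sites were thus scarcer among the footprint-free DHSs than in the list as a whole, and very strong sites more frequent. The excess of very strong sites held with all listed footprints counted. It was not seen when the weakest 15% or 30% of footprints were left out. At like width the scarcity was not seen. Strong sites made up 4.03% of footprint-free and 3.38% of footprint-holding DHSs below 300 bp, 4.14% and 3.49% from 300 to 500 bp, 4.92% and 3.96% from 500 to 750 bp, 5.07% and 4.93% from 750 to 1000 bp, and 10.3% and 7.73% from 1000 to 1500 bp. These shares rest on 6 to 13 strong footprint-free DHSs per class. When the top 10% was taken within each width class instead, 107 footprint-free DHSs were strong. The 52 had a median enrichment of 3.76-fold and a median width of 540 bp, and 42 were under 1000 bp wide.

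The 24 very strong footprint-free DHSs ranged from 4.00- to 7.90-fold, with a median of 4.81-fold, and from 240 to 3057 bp in width, with a median of 540 bp. The 339 very strong DHSs with footprints had a median width of 2446 bp and a median of 5 DGFs. When only DHSs under 1000 bp were considered, 19 without and 59 with a footprint were very strong. Their median enrichments were 4.65- and 4.49-fold, their median -log10 p-values 53.2 and 51.5, and their median widths 461 and 533 bp. In width and signal these sites lay close together, and 24.4% of them lacked a footprint (16.2% to 34.9%).

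The narrow, very strong sites that did hold footprints held few, but strong ones. Of the 59, 30 held exactly 1 DGF, and their strongest footprints had a median score of -80.8, compared with -17.4 over all footprint-holding DHSs. The least marked of these strongest footprints scored -16.5. Among all 339 very strong DHSs with footprints the corresponding values were -30.9 and -14.9, so none owed its place only to a weak footprint.

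Weak footprints mattered for membership mostly at low enrichment. When the weakest 30% of footprints (scores above -12.1) were disregarded, the footprint-free group grew to 4535, but its very strong members were again 24. Those 24 of 4535 were a smaller share than the 1.00% of all DHSs, unlike 24 of 1011. DHSs whose footprints all fell in that weak part made up 25.7% of the footprint-holding DHSs in the lowest 10% of enrichment, 14.7% between ranks 10% and 50%, 4.13% between 50% and 90%, 0.218% between 90% and 99% (7 DHSs), and 0 of 339 in the top 1%, which allows a share of up to 0.885%. DHSs with weak footprints alone were thus common at low enrichment and not seen among the very strong ones.

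The footprint-free DHS with the highest enrichment lay on chromosome 4 from 28261434 to 28263180 (1747 bp). Its enrichment of 7.90-fold was the fourth highest of the whole list and its column 5 score of 1482 the third highest. The summit at 28262860 was towards its right end, and the nearest DHS, 2623 bp away, was only 1.97-fold enriched and held 5 DGFs. The next was a narrow site of 398 bp on chromosome 3 from 23738527 to 23738924, with 7.48-fold enrichment (rank 6) and its summit at 23738688. Only 2 other DHSs lay in a 100-kb window centred on it.

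A site of 2024 bp on chromosome 5 from 6688133 to 6690156 reached 6.96-fold (rank 7), and lay 223 bp from a DHS with 4 DGFs and 2.07-fold enrichment. A site of 506 bp on chromosome 1 from 38693361 to 38693866 reached 6.76-fold (rank 10), with no other DHS for 5607 bp. On chromosome 4, 1124 bp from 23268274 to 23269397 were enriched 6.65-fold (rank 13), 234 bp from a DHS with 4 DGFs and 2.45-fold enrichment. In each of these first 5 cases the nearest DHS was less enriched and held 3 to 5 DGFs.

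An exception lay on chromosome 5, where a 590-bp site from 14549899 to 14550488 (6.45-fold, rank 15) was 313 bp from a DHS that was itself very strong, from 14550802 to 14551674 (873 bp, 5.58-fold), and that held 4 DGFs. The others of the first 10 lay on chromosome 4 from 20455661 to 20456105 (445 bp, 6.14-fold), on chromosome 2 from 12513608 to 12514605 (998 bp, 5.76-fold), on chromosome 4 from 13199137 to 13199684 (548 bp, 5.62-fold), and on chromosome 2 from 12922319 to 12925375 (5.46-fold). By chromosome, the first 10 comprised 4 on chromosome 4, 2 on chromosome 2, 2 on chromosome 5, and 1 each on chromosomes 1 and 3.

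The last of these was also the widest footprint-free DHS of all, at 3057 bp, with its summit at 12925041 near its right end. The other widest members were mixed in strength. A DHS of 2833 bp on chromosome 2 from 5142732 to 5145564 was enriched 2.38-fold, and 1 of 2282 bp from 46551766 to 46554047 on the same chromosome 2.65-fold. The 2024-bp site on chromosome 5 described above came next, followed by 1953 bp on chromosome 2 from 28699837 to 28701789 with 2.07-fold enrichment. Of the 4 members of 2000 bp or more, 2 were thus very strong and 2 were not strong.

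**Figure D3:**
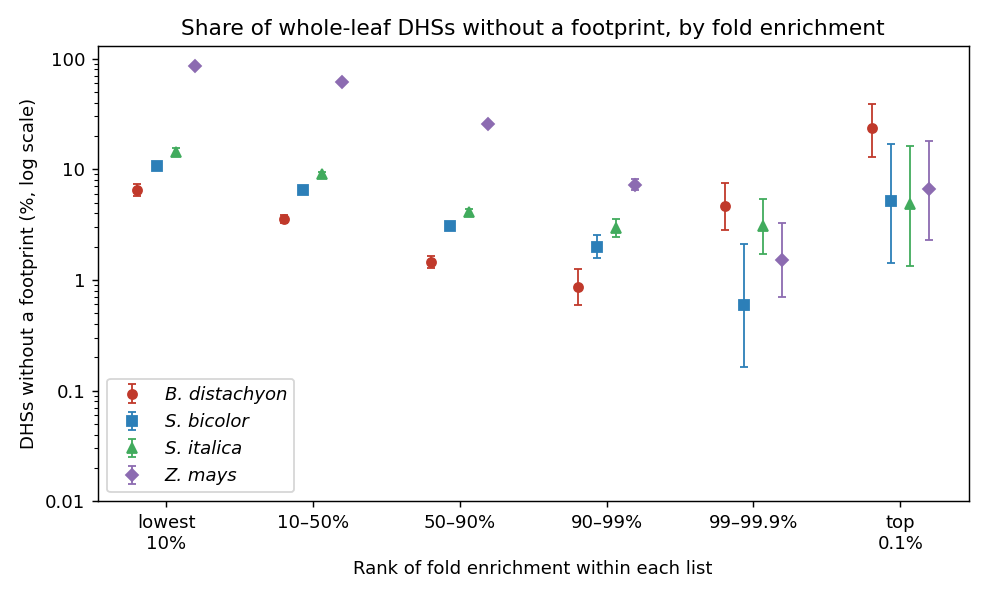
Share of whole-leaf DHSs without a footprint (log scale, percent) by rank of fold enrichment within each list, for *B. distachyon* and the 3 C4 species, with 95% Wilson intervals as bars. The *B. distachyon* share falls to 0.864% between ranks 90% and 99% and stands at 23.7% in the top 0.1%, and in the top 0.1% the C4 species lie between 4.88% and 6.67% with wide intervals.

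Set beside the other whole-leaf lists, *B. distachyon* had the smallest footprint-free share, 2.79%, while the C4 species stood at 5.11% (*S. bicolor*), 7.0% (*S. italica*) and 44.2% (*Z. mays*). At like width the shares of the first 3 species were not uniformly closer. As a ratio, their spread was smaller than over all widths below 300 bp and from 500 to 750 bp. It was larger from 1000 to 1500 bp. Below 300 bp the *B. distachyon* share was 28.5%, the *S. bicolor* share 34.0% and the *S. italica* share 32.0%. From 500 to 750 bp they were 6.77%, 10.2% and 10.9%, and from 1000 to 1500 bp 0.787%, 2.42% and 2.03%. In these 2 classes the *B. distachyon* interval lay below the others, and below 300 bp it overlapped both. The share in *Z. mays* was 96.4% below 300 bp and still 51.5% from 1000 to 1500 bp.

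Only in *B. distachyon* was the footprint-free share higher in the top 1% of enrichment than in the whole list (2.79%). Each C4 list had a lower share in its top 1% than as a whole. Whole-list shares were 5.11% for *S. bicolor*, 7.0% for *S. italica* and 44.2% for *Z. mays*. In the top 1% of each list, 6.61% of DHSs lacked a footprint in *B. distachyon* (24 of 363, 4.48% to 9.65%). The corresponding share was 1.00% for *S. bicolor* (4 of 399, 0.391% to 2.55%), 3.24% for *S. italica* (13 of 401, 1.90% to 5.47%) and 2.05% for *Z. mays* (9 of 439, 1.08% to 3.85%). Restricted to DHSs under 1000 bp, the shares were 24.4% (19 of 78, 16.2% to 34.9%), 5.36% (3 of 56), 9.18% (9 of 98) and 6.45% (4 of 62). The *B. distachyon* interval overlapped that of *S. italica* in both cases and lay above the others. From ranks 90% to 99%, through the rest of the top 1%, to the top 0.1%, the *B. distachyon* share was 0.864%, 4.62% (15 of 325, 2.82% to 7.47%) and 23.7% (9 of 38, 13% to 39.2%). The same 3 shares were 2.00%, 0.590% and 5.13% (2 of 39) for *S. bicolor*, 2.94%, 3.06% and 4.88% (2 of 41) for *S. italica*, and 7.22%, 1.52% and 6.67% (3 of 45) for *Z. mays*. The last step was thus upwards in all 4 lists, with intervals that did not overlap in *B. distachyon* and overlapped in each C4 species, where 2 or 3 DHSs stand behind it. Fold enrichment is on a different scale in each list, with median folds of 2.37 (*B. distachyon*), 4.23 (*S. bicolor*), 4.44 (*S. italica*) and 9.44 (*Z. mays*), and only ranks were compared. Sequencing depth was not taken into account, and its part in these differences, including the high *Z. mays* share, was not tested.

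Footprint-free DHSs were spread over all chromosomes. They made up 2.61% of the DHSs of chromosome 1 (269), 2.83% of chromosome 2 (224), 2.63% of chromosome 3 (211), 3.15% of chromosome 4 (206) and 2.89% of chromosome 5 (101). Given the widths of the DHSs on each chromosome, the number observed was 0.959 to 1.07 times the number expected. Of 274 bins of 1 Mb that held a DHS, 13 had no footprint-free DHS, and the median was 3. The fullest bin, on chromosome 4 from 3000001 to 4000000, held 13 among 159 DHSs.

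Along the chromosomes the share was somewhat higher in the middle. In the middle 20% of chromosome length 3.22% of DHSs were footprint-free (195 of 6063, 2.80% to 3.69%), and in the outer 40% 2.43% (368 of 15149, 2.20% to 2.69%). The difference was 0.787 percentage points (0.279 to 1.30), and 0.496 when both parts were standardised to the same widths. Relative to the number expected from width, the ratio was 1.11 in the middle and 0.941 in the outer parts. Single stretches differed more. When each chromosome was cut into 10 equal parts, the first part of chromosome 1 had 1.22% (13 of 1069, 0.712% to 2.07%) and the second part of chromosome 5 had 5.88% (17 of 289, 3.70% to 9.22%), and the shares expected from width, 2.66% and 3.32%, lay outside both intervals. With 50 parts compared, some such intervals will miss by counting error alone.

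Over all widths, the very strong footprint-free DHSs lay less often in the outer parts than very strong DHSs with footprints. Of the 24, 10 (41.7%, 24.5% to 61.2%) lay in the middle 20% and 2 (8.33%, 2.32% to 25.8%) in the outer 40%. Of the 339 very strong DHSs with footprints, 76 (22.4%, 18.3% to 27.2%) lay in the middle and 107 (31.6%, 26.8% to 36.7%) in the outer parts. The intervals of the outer shares did not overlap, while those of the middle shares did. Among DHSs under 1000 bp, the outer parts held 2 of 19 without a footprint and 17 of 59 with one, with overlapping intervals. The middle held 8 of 19 (23.1% to 63.7%) and 13 of 59 (13.4% to 34.1%), again with overlap. A difference in placement was thus not resolved in this width range. The remaining 959 footprint-free DHSs, those that were not strong, had 18.6% in the middle and 37.1% in the outer parts, compared with 16.6% and 41.9% of all footprint-holding DHSs. The interval of the outer share, 34.1% to 40.2%, lay below the 41.9% of footprint-holding DHSs. These groups differ in width, with medians of 468 and 1524 bp, and this comparison was not made at like width. DGFs were also counted in a 100-kb window centred on each DHS, outside the DHS itself. Their median number was 57.5 for the very strong footprint-free DHSs and 67 for the very strong DHSs with footprints. It was 77 for the footprint-free DHSs that were not strong.

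**Figure D4:**
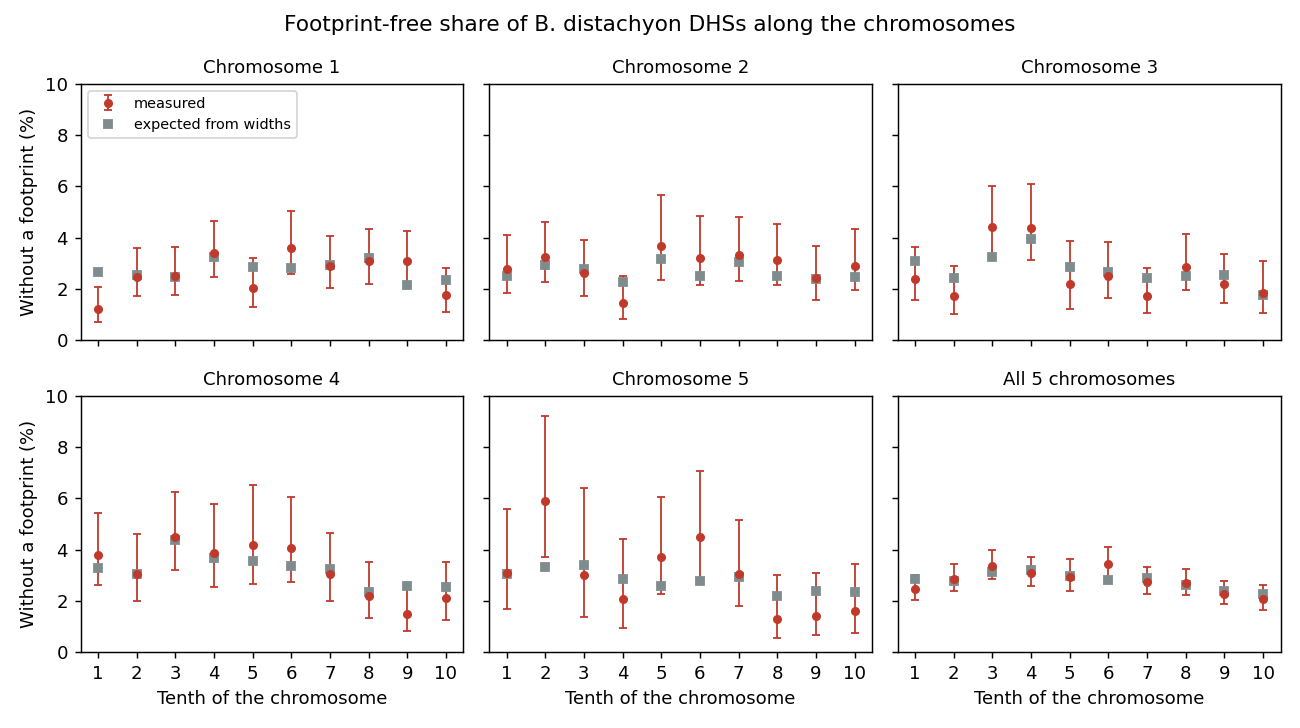
Share of DHSs without a footprint (percent, red, with 95% Wilson intervals) in 10 equal parts of each *B. distachyon* chromosome and of all 5 together, beside the share expected from DHS widths (grey squares). The measured share ranges from 1.22% at the start of chromosome 1 to 5.88% in the second part of chromosome 5, and over all chromosomes it stays between 2.08% and 3.43%.

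Footprint-free DHSs did not stand in empty surroundings. The nearest other DHS was a median of 1105 bp away (1154 bp for footprint-holding DHSs), and the nearest footprint 1490 bp (1582 bp). In a 100-kb window centred on the DHS there were a median of 15 other DHSs around footprint-free and 14 around footprint-holding DHSs. No DHSs overlapped, and the smallest gap between any pair was 198 bp. Of the footprint-free DHSs, 332 (32.8%) had a neighbour within 500 bp, against 28.8% of those with a footprint.

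At like width the median distance to the nearest DHS was 100 bp shorter for footprint-free DHSs, with a range of -396 to 326 bp that includes 0. This range was formed like that for enrichment and is likewise too wide to decide. The sign varied among classes. Medians were 924 bp without and 1085 bp with a footprint below 300 bp, 1248.5 and 1127 bp from 300 to 500 bp, 1135.5 and 1328 bp from 500 to 750 bp, 1150 and 1273 bp from 750 to 1000 bp, and 707.5 and 1289 bp from 1000 to 1500 bp. A neighbour within 500 bp was found for 34.1% without and 24.5% with a footprint in the class from 500 to 750 bp, and for 37.9% and 26.2% in the class from 1000 to 1500 bp. From 300 to 500 bp the order was the opposite, at 26.9% and 28.6%.

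**Figure D5:**
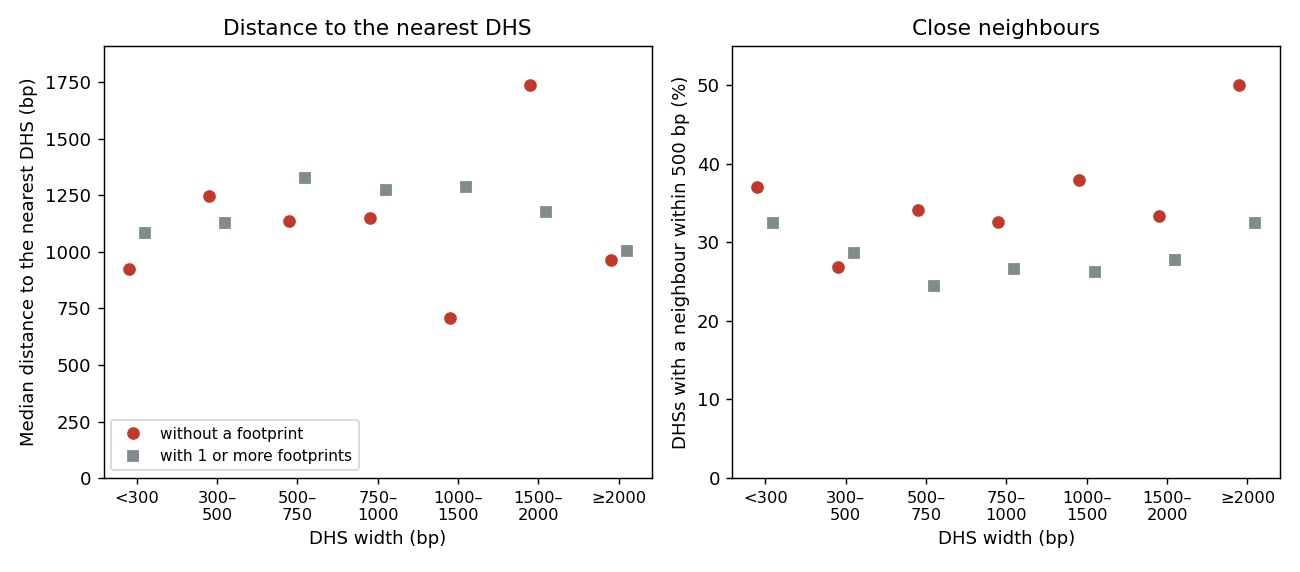
Median distance to the nearest DHS (bp, left) and share of DHSs with another DHS within 500 bp (percent, right) in 7 width classes of *B. distachyon* DHSs, without a footprint (red circles) and with 1 or more (grey squares). Close neighbours are more frequent without a footprint in 6 of the 7 classes, and the 2 widest classes rest on only 9 and 4 footprint-free DHSs.

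The neighbours themselves were ordinary. The nearest DHS of a footprint-free DHS held a median of 4 DGFs, was 1414 bp wide and had an enrichment of 2.37-fold, compared with 4 DGFs, 1547 bp and 2.37-fold for the nearest DHS of a footprint-holding DHS. It was itself footprint-free in 40 of 1011 cases (3.96%, 2.92% to 5.34%), against 955 of 35268 (2.71%, 2.54% to 2.88%) around footprint-holding DHSs. Taking the next DHS on either side gave 3.86% (78 of 2022, 3.10% to 4.79%) and 2.76% (1944 of 70526, 2.64% to 2.88%). Among nearest neighbours of 500 to 1000 bp only, 8.68% (21 of 242, 5.75% to 12.9%) lacked a footprint around footprint-free DHSs, against 4.92% (373 of 7584, 4.45% to 5.43%) around footprint-holding DHSs. The intervals did not overlap in any of the 3 comparisons, but they are too narrow. Each pair of adjacent footprint-free DHSs enters the either-side count from both sides. Pairs that are nearest to each other can do so in the other counts. Neighbouring intervals are also not independent, so the lack of overlap does not show that footprint-free DHSs cluster. None of the 24 very strong footprint-free DHSs had a footprint-free nearest neighbour (0 of 24, which allows a share of up to 12.5%).

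Of the footprint-free DHSs, 935 stood alone between DHSs with footprints. There were 35 runs of 2 consecutive footprint-free DHSs and 2 runs of 3, which together held 76 members (7.52%). The first run of 3 lay on chromosome 1 from 38952397 to 38956971, with DHSs 196, 286 and 707 bp wide and enriched 2.62-, 2.17- and 2.18-fold. The second lay on chromosome 2 from 57676871 to 57679150, where 548, 525 and 674 bp were enriched 2.18-, 2.64- and 2.19-fold and separated by gaps of 302 and 231 bp. The first run of 2 by position lay on chromosome 1 from 20028114 to 20031730, with 1066 and 321 bp enriched 2.28- and 2.17-fold. None of these 8 DHSs was strong.

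At the other extreme, 3 footprint-free DHSs lay more than 50 kb from any other DHS. An 855-bp site on chromosome 4 from 18809480 to 18810334 (2.52-fold) was 55875 bp from its neighbour, a 266-bp site on chromosome 2 from 28029907 to 28030172 (2.41-fold) 53672 bp, and a 590-bp site on chromosome 4 from 16555843 to 16556432 (1.93-fold) 52055 bp. Their neighbours held 17, 2 and 29 DGFs. The DHS with the highest enrichment of the list, on chromosome 1 from 35905760 to 35906989 (9.86-fold, 6 DGFs), had its nearest footprint-free DHS 3496 bp away, from 35902038 to 35902263. That site was 226 bp wide and 3.62-fold enriched, and so was itself strong.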

How the data were processed

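DNaseI-seq of *B. distachyon* whole leaves was analysed from the authors' processed lists, with the whole-leaf lists of 3 C4 grasses for comparison. The authors mapped reads with bowtie2 to Bdistachyon_283_assembly_v2.0, removed reads of low mapping quality with SAMtools, and ran MACS2 for peaks, of which those reproducible between replicates by the irreproducible discovery rate were kept as DHSs. Footprints were called by Wellington on pooled replicates. The submitters' processing notes name Bowtie2, MACS2 and SAMtools, whose versions are not given in the sources used here. The deposited DHS lists give a score in column 5, a fold enrichment (a ratio) in column 7, and a −log10 p-value in column 8. In 99.997% of DHSs the deposited score was the whole part of 10 times column 8. The deposited footprint lists give the authors' Wellington score per footprint of 11 to 25 bp. A correction for cutting bias on naked DNA is described by the authors. The lists hold no likelihood ratio, and that filter was not repeated.

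Footprint-free DHSs were selected on footprint overlap (1 bp or more) on chromosomes 1 to 5. BEDTools 2.31.1 also found 1011. The 7 DHSs on unplaced sequences all held footprints and were left out. Comparisons at like width used classes with limits at 300, 500, 750, 1000, 1500 and 2000 bp. The number expected from width applied each class's footprint-free share over the whole list to the DHSs of a chromosome or part. Chromosome lengths were taken as the largest listed position. Shares carry 95% Wilson intervals, except that the upper limit for a count of 0 is 3 divided by the number of DHSs. No test was run, since each species has 1 combined list. Depth per sample is not held by the lists, so precision is given for counting of intervals only. Columns belonging to other samples numbered 0.

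Regions named are the 10 footprint-free DHSs with the highest column 7, the 5 widest, the 3 longest runs, the 3 most distant from another DHS, and that with the highest score. The neighbour of the DHS with the highest column 7 was added after its values were seen. The members, classes and rules were chosen with earlier results of these data known. Alternatives varied the overlap, the footprints counted, the DHSs kept, the width classes and the measure of strength. The counting functions and the like-width difference were tested on simulated data. The neighbour function was not tested in this way. Sequence features were not computed, since no genome of this assembly was used here. Computation used pandas 2.3.3, NumPy 2.4.6 and SciPy 1.17.1 under Python 3.11.15, with matplotlib 3.10.9 for plots.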

Additional observations from a re-analysis of the deposited data

How the results depend on the processing

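Of 29 alternatives, 6 of which were added after seeing the data, 19 left the result within its counting error or within 1.5 times the count, 10 moved it, and 0 changed its direction. For differences at like width, the wide ranges given above stood in for the counting error. Counts were judged by their number alone, and not by the share of the group that they made up. Leaving out a replicate was not possible, since the lists combine replicates. No paired analysis was possible because each species has 1 combined list and no test was run. The number of footprint-free DHSs, 1011, became 2680 without the weakest 15% of footprints and 4535 without the weakest 30%, and 233 when DHSs below the median of column 8 were left out. Requiring the footprint wholly inside, counting footprints up to 50 bp outside, merging rows, and including unplaced sequences each gave 1011. These settings could not change the count. No footprint lay partly outside a DHS, and no DHSs overlapped. No footprint was nearer than 236 bp to a footprint-free DHS, and all DHSs on unplaced sequences held footprints. Such settings are among the 19 and say nothing about robustness. The median width of 472 bp became 724 bp without the weakest 30% of footprints and 594 bp without the DHSs below the median of column 8. The difference of medians at like width, -0.04 in column 7, was -0.19 without the weakest 30% of footprints, and on other scales it was -7.52 in column 5 and -0.75 in column 8. Strong footprint-free DHSs numbered 107 instead of 52 when the top 10% was taken within each width class, and 39 to 55 otherwise. The 107 of 1011 were near the share that the within-class limit sets for all DHSs. The 24 very strong ones numbered 23 to 30 under the 4 alternatives tried. Without the weakest 30% of footprints they were 24 of 4535, a smaller share than the 1.00% of all DHSs, so that contrast changed its direction. Of these alternatives, counting footprints up to 50 bp outside could not change the number. The footprint-free share of nearest neighbours, 3.96%, was 8.68% when only neighbours of 500 to 1000 bp were counted. Without replicate lists or read counts, the depth that would be needed to call a footprint in a DHS of a given width could not be judged.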
